A study of Mus musculus with 6 samples.

Results

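Nuclear genes supply most of the protein subunits of the mitochondrial respiratory chain, and their messenger RNA was measured here in splenic monocytes of mice that had received vancomycin or water by gavage. Members were taken by gene symbol: the NADH dehydrogenase (Nduf), succinate dehydrogenase (Sdh), ubiquinol-cytochrome c reductase (Uqcr and Cyc1), cytochrome c oxidase (Cox) and ATP synthase (Atp5) names, without symbols that hold a hyphen. Of 46072 gene identifiers in the count table, 85 symbols matched, and 79 of them had a mean count of at least 50 over the 6 libraries. These 79 genes are the members: 35 of complex I, 4 of complex II, 9 of complex III, 14 of complex IV and 17 of complex V. The rule used no level difference between the groups, but the gene group was chosen with earlier results of these data known. The 6 matching genes under the minimum were Cox4i2, Cox7a1, Cox7b2, Cox8b, Cox8c and Ndufa4l2. The members Cox7a2l, Atp5s and Atp5sl match the names but are held to be associated proteins rather than subunits, and Ndufa4 was placed with complex IV, of which it is now held to be a part.

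All mice were female C57BL/6 animals aged 8 to 10 weeks, with no engineered allele named in the labels. The 3 Van mice were gavaged with vancomycin at 2 mg per day for 6 days, and the 3 Con mice with water over the same days. Both groups then rested without antibiotic until RNA was taken after rest day 8, while the labels give this rest only as 6 to 8 days. The comparison asks how an altered gut microbiome changes innate immune cells. Monocytes were taken from the spleen by magnetic negative selection and were not stimulated, so that each library is a bulk measurement of what the selection left, and RNA was made into strand-specific polyA libraries, 1 per mouse. The libraries held 43.4M to 61.8M estimated counts, with Con 3 the smallest and Van 1 the largest. How the mice were divided among cages is not stated, so cage and treatment cannot be told apart.

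The respiratory chain sits in the inner mitochondrial membrane. Complexes I and II pass electrons from NADH and succinate to coenzyme Q, complex III passes them on to cytochrome c, and complex IV passes them to oxygen. Complexes I, III and IV pump protons as they do so, and complex V lets the protons back to make ATP. Complex II is encoded wholly in the nucleus, whereas each of the other complexes also holds 1 or more core subunits encoded by mitochondrial DNA, so the nuclear and mitochondrial genomes have to supply parts of the same machine. In macrophages and monocytes, respiration and glycolysis are known to shift with activation.

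Nuclear respiratory genes are known for promoters that bind NRF1, ETS family factors such as GABP, and YY1. RefSeq promoters (GRCm38.p6, from 250 bases before to 50 after the annotated start) were matched to 66 of the 79 members. On either strand, the NRF1 letters GCGCATGC were found in the promoters of 10 of the 66 members (15.2%), compared to 3.05% of 27025 symbols with a promoter and 5.82% of the 10146 of them that were tested here. The ETS letters CCGGAAG were found in 16 members (24.2%), against 9.93% of all and 19.5% of tested symbols. The YY1 letters AAGATGGC were found in 11 members (16.7%), against 3.19% of all and 5.19% of tested symbols. The TATAAA letters were found in 5 members (7.58%), against 15.7% and 8.98%. All 11 members with the YY1 letters belonged to complex I (7) or complex V (4). These counts describe letters in a window and not bound sites.

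To show such promoters, the member of each complex with the highest level among those with an NRF1 match is printed, 5' to 3' on the gene's own strand, with NRF1, ETS and TATAAA letters on either strand in capitals. They lie at chr15:82354242-82354541 (Ndufa6, minus strand), chr4:140961021-140961320 (Sdhb, plus strand), chr9:108936398-108936697 (Uqcrc1, plus strand), chr5:115348909-115349208 (Cox6a1, minus strand) and chr9:44920693-44920992 (Atp5l, minus strand).
Ndufa6 promoter: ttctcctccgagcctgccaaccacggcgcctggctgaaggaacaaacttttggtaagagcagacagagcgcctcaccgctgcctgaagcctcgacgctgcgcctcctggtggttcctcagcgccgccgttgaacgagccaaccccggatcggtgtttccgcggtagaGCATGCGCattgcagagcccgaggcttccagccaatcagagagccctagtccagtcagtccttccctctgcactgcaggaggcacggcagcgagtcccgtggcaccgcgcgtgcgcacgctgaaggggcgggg
Sdhb promoter: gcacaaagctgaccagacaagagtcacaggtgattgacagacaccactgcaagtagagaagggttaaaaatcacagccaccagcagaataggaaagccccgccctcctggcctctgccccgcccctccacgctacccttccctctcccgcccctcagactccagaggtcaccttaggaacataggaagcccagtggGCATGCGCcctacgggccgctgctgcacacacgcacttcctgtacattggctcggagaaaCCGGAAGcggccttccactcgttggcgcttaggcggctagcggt
Uqcrc1 promoter: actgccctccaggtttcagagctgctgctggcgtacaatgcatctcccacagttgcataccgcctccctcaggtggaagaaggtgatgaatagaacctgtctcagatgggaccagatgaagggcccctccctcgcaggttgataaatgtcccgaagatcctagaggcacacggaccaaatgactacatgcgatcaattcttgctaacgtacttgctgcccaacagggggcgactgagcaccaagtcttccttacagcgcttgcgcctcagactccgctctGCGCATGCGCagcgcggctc
Cox6a1 promoter: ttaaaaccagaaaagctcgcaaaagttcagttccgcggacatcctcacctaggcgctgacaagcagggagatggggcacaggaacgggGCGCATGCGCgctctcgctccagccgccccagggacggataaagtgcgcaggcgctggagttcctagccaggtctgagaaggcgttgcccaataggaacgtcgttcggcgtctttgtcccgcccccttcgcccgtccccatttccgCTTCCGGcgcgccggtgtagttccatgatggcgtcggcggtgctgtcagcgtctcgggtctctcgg
Atp5l promoter: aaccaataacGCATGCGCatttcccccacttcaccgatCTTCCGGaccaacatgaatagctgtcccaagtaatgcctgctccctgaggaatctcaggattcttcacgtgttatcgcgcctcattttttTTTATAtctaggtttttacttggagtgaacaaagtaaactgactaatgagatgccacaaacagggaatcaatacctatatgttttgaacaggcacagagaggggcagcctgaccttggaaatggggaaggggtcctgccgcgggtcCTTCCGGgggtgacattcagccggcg
In Uqcrc1 and Cox6a1, the capitals at the NRF1 letters are longer because the forward and reverse matches overlap there and were counted as 2. Sdhb, Cox6a1 and Atp5l carried NRF1 and ETS letters together. The letters in Uqcrc1 lie after the annotated start.

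The members were mostly well expressed. FPKM, in which fragments are scaled to transcript length and library size so that genes can be compared, had a median over members of 41.9, and the median member stood at the 90.1st percentile of the genes tested. Complexes IV and V had the higher medians, 83.3 and 82.6 FPKM, and complex I had the lowest, 27.7 FPKM. Complex II had a median of 45.4 FPKM and complex III of 51.6 FPKM. Within a complex, the levels of single members spanned 11.2-fold in complex I, 3.31-fold in complex II and 3.85-fold in complex III. The spans of complexes IV and V, 73.2-fold and 269-fold, rested on 3 low genes, Cox6a2 and Cox6b2 in the former and Atp5s in the latter. Summed over all members, FPKM was 4516, 4565 and 4499 in the 3 Con mice and 4251, 4520 and 4720 in the 3 Van mice. The Van libraries thus enclosed the Con libraries on both sides.

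**Figure D1:**
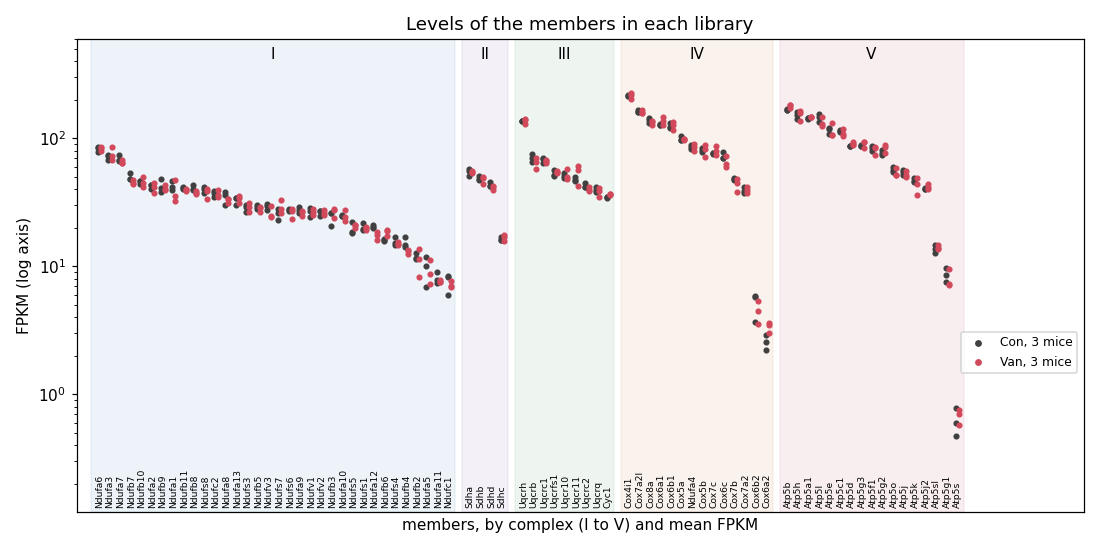
FPKM of 78 of the 79 members in each of the 6 libraries on a log axis, grouped by complex and ordered by mean level, with 3 Con mice (grey) and 3 Van mice (red) as points. The Con and Van points lie together for nearly every gene, while genes of 1 complex differ by 3.31-fold (complex II) to 269-fold (complex V).

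Where a subunit exists in several forms, the form found in most tissues carried the signal. Cox4i1, the common form of subunit 4, had 215, 215 and 220 FPKM in Con and 202, 227 and 220 FPKM in Van, and was the most abundant member. The lung form Cox4i2 lay between 0.545 and 1.36 FPKM in the 6 libraries and was under the count minimum. Cox6a1, the common form of subunit 6a, was at 126, 127 and 130 FPKM in Con and 128, 138 and 146 FPKM in Van. Its heart and muscle counterpart Cox6a2 was at 2.23, 2.88 and 2.57 FPKM in Con and 3.01, 3.59 and 3.46 FPKM in Van. Cox6b1 averaged 126 FPKM and its testis form Cox6b2 4.78 FPKM. Cox7a2 averaged 39.3 FPKM and the related supercomplex factor Cox7a2l 162 FPKM, whereas the muscle form Cox7a1 did not exceed 0.703 FPKM in any library. Cox8a averaged 135 FPKM, while Cox8c was at 0 in every library. Ndufa4 averaged 85.6 FPKM, and its paralogue Ndufa4l2, known to be induced by hypoxia, was listed at 0 in 5 of 6 libraries. Cox6a2 overlaps the exons of the integrin gene Itgad on the opposite strand over 70 bases, so its low values may include reads of that gene.

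Atp5g1, Atp5g2 and Atp5g3 encode the same mature c subunit of the ATP synthase rotor. Atp5g3 and Atp5g2 were at similar levels, 89.0 and 80.4 FPKM on average, and Atp5g1 was at 8.31 FPKM. CPM are counts scaled to the TMM-adjusted library size with no correction for length. For Atp5g1, 1 FPKM stood for 3.83 CPM, against a median of 0.994 over members. Its FPKM is uncertain, as it depends on the transcript length assigned, and its annotated coding transcripts are long. The ratio also exceeded 3 for Ndufa11, Sdha and Sdhc, though the median coding transcript was only 545 bases for Ndufa11 and 815 for Sdhc. The reason was not tested. In CPM the 3 c subunit genes were at 32.3, 65.4 and 76.5 CPM in Con and at 31.3, 70.9 and 78.8 CPM in Van for Atp5g1, Atp5g2 and Atp5g3. None of the 3 differed between the groups by the test (edgeR adjusted p of 0.871, 0.4999 and 0.820).

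Of the 79 members, none was called between Van and Con at an adjusted p of at most 0.05 (edgeR quasi-likelihood test with Benjamini-Hochberg adjustment over 16138 genes), compared to 2.00% of all genes tested. DESeq2 and limma also called none, and neither did any fit that left out 1 mouse. At an unadjusted p under 0.05, 4 members passed (5.06%), 2 higher and 2 lower in Van, against 16.5% of all genes. With DESeq2, 3 members passed this limit (2718 of 23572 genes), and with limma on log2(FPKM + 1) values 5 did (2431 of 16057 genes). The edgeR count also moved with single mice, to 0 without Con 3 or Van 2, 1 without Con 2, 3 without Van 1, 5 without Con 1 and 8 without Van 3. Over all genes in these fits, 2169, 2000, 2325, 2552, 2535 and 2315 passed in the same order, of 16613 to 16758 tested. The CPM of the groups did not overlap for 11 members (13.9%), against 22.5% of all genes. Both shares lay below those of all genes, and also below the 22.9% and 28% of genes with a mean of at least 10 CPM, a level that 75 of the members reach. The smallest adjusted p of a member was 0.224.

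The measurements also bound the size of a difference. The log2 fold change of Van against Con had a median over members of -0.03, with 26 members higher and 53 lower, against a median of -0.0014 over all genes. This balance followed single mice, as 38 members were lower without Van 1, where the median was 0.0063, and 63 were lower without Van 3, where the median was -0.07. It ranged from -0.24 for Ndufa12 to 0.37 for Cox6a2. The median size of the log2 fold change was 0.065 over members, 0.149 over all genes and 0.099 over genes with a mean of at least 10 CPM. The median standard error of a member was 0.075. The 95% interval of the log2 fold change lay within 0.5 of zero for 75 of the 79 members and within 0.3 for 60 of them. The members whose interval reached beyond 0.5 were Ndufa5, Cox6a2, Cox6b2 and Atp5s, which all averaged under 10 CPM. A p above the threshold does not show that the groups were equal. With 3 mice in each group, differences that lie inside the intervals may have been missed.

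**Figure D2:**
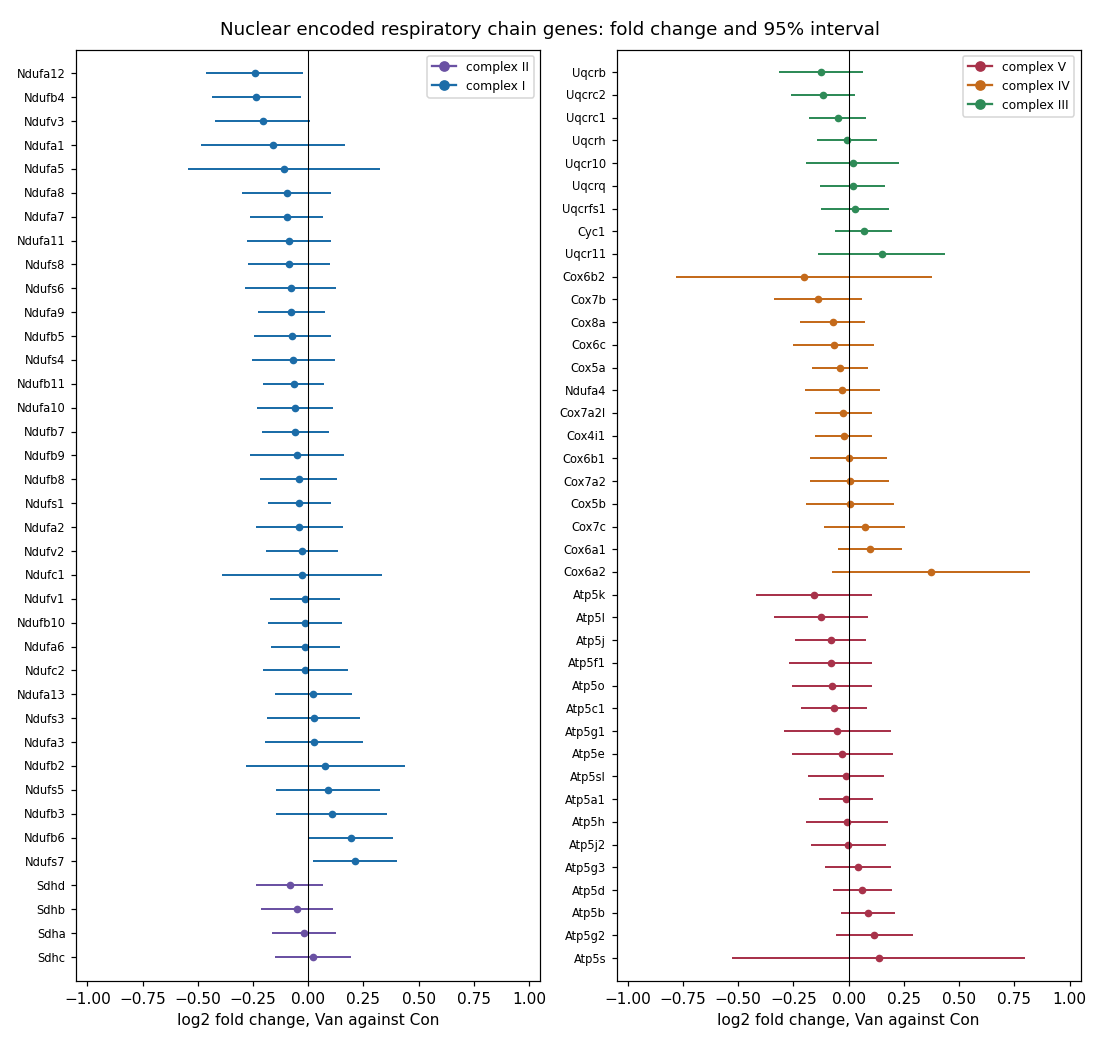
Log2 fold change of Van against Con for 78 of the 79 members (points) with its 95% interval from the edgeR fit (lines), with complexes I and II on the left and complexes III to V on the right. The points lie between -0.24 and 0.37, and 74 of the 78 intervals stay within 0.5 of zero.

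Complex I takes electrons from NADH. Its 35 nuclear members showed a median log2 fold change of -0.04, with 9 higher and 26 lower in Van, and all 4 members with an unadjusted p under 0.05 were among them. Ndufb4, an accessory subunit of the membrane arm, was at 16.5, 16.8 and 19.1 CPM in Con and 14.5, 14.7 and 15.3 CPM in Van. All 3 Van mice lay below all 3 Con mice, with a log2 fold change of -0.23 ± 0.09 (SE) and an adjusted p of 0.224 by edgeR. Ndufb4 (chr16:37647170-37654453 in GRCm38) has a near-identical copy, Ndufb4c, whose reads may not be separable. Ndufa12, an accessory subunit of the matrix arm, was at 14.6, 14.9 and 16.4 CPM in Con and 12.03, 12.8 and 14.0 CPM in Van. These groups did not overlap either, and the log2 fold change was -0.24 ± 0.09 (SE) with an edgeR adjusted p of 0.251. Ndufa12 (chr10:94198720-94221443) has the near-identical copy Gm15920.

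Ndufs7, the core subunit with the last iron-sulfur cluster before coenzyme Q, lay the other way. It was at 26.4, 23.8 and 25.4 CPM in Con and 28.4, 31.9 and 27.3 CPM in Van, so each Van mouse was above each Con mouse. The log2 fold change was 0.21 ± 0.08 (SE), with an edgeR adjusted p of 0.248. Ndufs7 lies at chr10:80249121-80256794 and had no near-identical copy. Ndufb6, another accessory subunit of the membrane arm, was at 12.8, 12.4 and 12.6 CPM in Con and 14.97, 14.6 and 13.6 CPM in Van. Its Con values were close together and all 3 Van values were higher, with a log2 fold change of 0.19 ± 0.08 (SE) and an edgeR adjusted p of 0.296. Ndufb6 shares 257 bases of exon with Smim27 on the opposite strand. Ndufb6 was chosen after its values were seen. The most abundant member of the complex, Ndufa6, was at 84.3, 85.8 and 78.8 FPKM in Con and 79.7, 83.5 and 85.4 FPKM in Van, fully overlapping. The least abundant, Ndufc1, was at 8.21, 8.33 and 5.98 FPKM in Con and 6.90, 7.06 and 7.74 FPKM in Van, where Con 3 was the lowest of all.

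Complex II, which also serves as succinate dehydrogenase of the tricarboxylic acid cycle, showed overlapping groups for all 4 genes. Sdha, the flavin subunit that oxidizes succinate, was at 168, 187 and 190 CPM in Con and 183, 179 and 177 CPM in Van. The Van mice lay within the range of the Con mice, and the log2 fold change was -0.02 ± 0.06 (SE). Sdhb, the iron-sulfur subunit, was at 66.0, 70.2 and 63.7 CPM in Con and 59.7, 66.3 and 66.9 CPM in Van, for which the log2 fold change was -0.05 ± 0.07 (SE). Sdhc, a membrane anchor, was at 58.3, 62.7 and 56.7 CPM in Con and 55.8, 60.4 and 64.2 CPM in Van, for which the log2 fold change was 0.02 ± 0.07 (SE). The other anchor, Sdhd, was at 66.5, 71.2 and 63.9 CPM in Con and 61.5, 63.0 and 65.7 CPM in Van, for which the log2 fold change was -0.08 ± 0.06 (SE). The smallest edgeR adjusted p of the 4 genes was 0.586.

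In complex III the median log2 fold change was 0.02, with 5 members higher and 4 lower. The sign of this median turned, to -0.0187 without Con 3, -0.0269 without Van 3 and -0.0284 with limma on log2(FPKM + 1) values. Uqcrc2, a core protein of the matrix side, was at 99.5, 92.8 and 90.9 CPM in Con and 84.9, 85.4 and 90.8 CPM in Van. The groups were next to each other without overlap, since Van 3 came close to Con 3, and the log2 fold change was -0.12 ± 0.06 (SE) with an edgeR adjusted p of 0.392. Uqcrc2 (chr7:120635176-120659524) shares 504 bases of exon with Pdzd9 on the opposite strand. Cyc1, the cytochrome c1 that hands electrons to cytochrome c, was at 49.96, 49.2 and 49.2 CPM in Con and 52.2, 51.3 and 52.0 CPM in Van. Its replicates varied little and the groups did not overlap, yet the log2 fold change was only 0.07 ± 0.06 (SE) with an edgeR adjusted p of 0.615. Uqcrb, a ubiquinone-binding subunit, was at 42.1, 44.9 and 47.2 CPM in Con and 37.3, 44.2 and 41.7 CPM in Van, with overlap and 3 near-identical copies elsewhere in the genome. Uqcrh, the hinge protein between cytochrome c1 and cytochrome c, was the most abundant at 138, 136 and 137 FPKM in Con and 130, 143 and 140 FPKM in Van. Uqcrc1 stood on 2 identifiers with the same counts and was taken once.

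Complex IV reduces oxygen. Its 14 members showed a median log2 fold change of -0.02, with 6 higher and 8 lower, and the median was 0.0044 without Van 1. Cox6a2 had the greatest fold change of all members. It was at 1.77, 2.28 and 1.99 CPM in Con and 2.37, 2.77 and 2.71 CPM in Van, and the log2 fold change was 0.37 ± 0.19 (SE) with an edgeR adjusted p of 0.388. All Van mice were higher, but Con 2 and Van 1 were close and the level was low. Cox6a1 was at 87.2, 87.3 and 87.1 CPM in Con and 87.9, 92.3 and 99.6 CPM in Van, for which the log2 fold change was 0.10 ± 0.06 (SE) with an edgeR adjusted p of 0.502. Van 1 was hardly above the Con mice. Cox7b, a small X-linked subunit, was at 55.8, 58.5 and 55.8 CPM in Con and 45.4, 52.4 and 56.9 CPM in Van. Van 1 was low and Van 3 lay among the Con mice, and the log2 fold change was -0.14 ± 0.09 (SE). For Cox7b this became -0.0526 without Van 1 and -0.214 without Van 3. Cox4i1 itself had a log2 fold change of -0.02 ± 0.05 (SE).

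Complex V makes ATP. Its 17 members showed a median log2 fold change of -0.01, with 5 higher and 12 lower, and the median was 0.0209 without Van 1 and 0.0015 without Con 1. Atp5b, the catalytic beta subunit and the most abundant of the complex per length, was at 387, 381 and 373 CPM in Con and 391, 407 and 415 CPM in Van. The groups did not overlap, but Van 1 was near Con 1, and the log2 fold change was 0.09 ± 0.05 (SE) with an edgeR adjusted p of 0.441. Atp5b was the only member of complex V without overlap. Atp5g2 was at 69.6, 65.6 and 61.1 CPM in Con and 66.2, 71.1 and 75.4 CPM in Van, for which the log2 fold change was 0.12 ± 0.07 (SE). Atp5l, the g subunit that helps ATP synthase form dimers, was at 95.9, 90.8 and 80.5 CPM in Con and 79.9, 74.7 and 90.3 CPM in Van, with overlap. It has 9 near-identical copies in the genome. Atp5s, a coupling factor, was the least abundant member at 0.475 to 0.775 FPKM over the 6 libraries, and its log2 fold change was 0.14 ± 0.29 (SE).

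**Figure D3:**
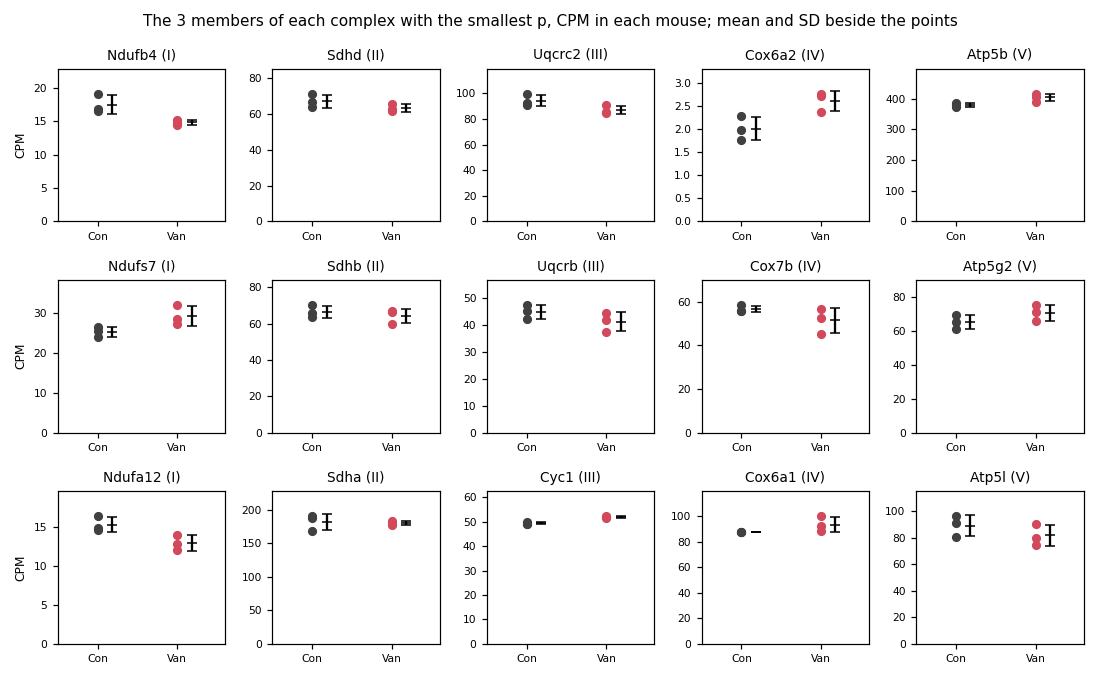
CPM in each mouse for the 3 members of each complex with the smallest unadjusted p (columns are complexes I to V), with 3 Con mice (grey) and 3 Van mice (red), and the mean and SD beside the points. The axes start at 0, and even for these genes the groups are close, with the greatest log2 fold change, 0.37, in the low gene Cox6a2.

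The members varied more among the Van mice than between the groups. Summed member FPKM was 4527 ± 34.2 (SD, n = 3) in Con and 4497 ± 235 (SD, n = 3) in Van. Van 1 was the lowest of the 6 libraries for 40 of the 79 members, compared to 16.4% of all genes, and Van 3 was the highest for 29 of them, compared to 16.7% of all genes. The mean deviation of the members from their 6-library mean was -0.09 in Van 1, -0.02 in Van 2 and 0.08 in Van 3 on the log2 scale. In Con 1, Con 2 and Con 3 it was 0.02, 0.04 and -0.02. All 5 complexes had their lowest mean deviation in Van 1. Complexes I, III, IV and V had their highest in Van 3, while complex II had it in Con 2. In Con 3 the complexes separated, with a mean deviation of 0.02 for complex I, -0.06 for complex IV and -0.07 for complex V. The mitochondrial ribosomal proteins, a further nuclear gene group, also had their lowest mean deviation in Van 1 (-0.07) and their highest in Van 3 (0.09). The cytosolic ribosomal proteins were highest in Van 3 too (0.06), where 34 of 84 genes had their highest value, but lowest in Con 3 (-0.04), with Van 1 next (-0.04). The tricarboxylic acid cycle enzymes were lowest in Van 1 (-0.02) and highest in Con 2 (0.04). The order of the libraries was thus shared in part with genes outside mitochondria. Across the 75 members with at least 10 CPM, the deviation had little relation to transcript length in any library, with Spearman's rho between -0.17 and 0.11 across genes that share their libraries.

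The subunits of the same complexes that mitochondrial DNA encodes did not lie where the nuclear members lay. All 13 were lower in Van with no overlap between the groups, against 22.5% of all genes without overlap in either direction. All 13 had an unadjusted p under 0.05 (16.5% of all genes). At an adjusted p of at most 0.05 by edgeR, 7 of the 13 fell (2.00% of all genes called in either direction). The 13 genes were measured in the same libraries, so they are not 13 independent results. Their median log2 fold change was -0.36, with a range from -0.47 (mt-Nd6) to -0.23 (mt-Nd3), whereas the nuclear medians by complex lay between -0.04 and 0.02. The 7 called were mt-Nd1, mt-Nd2, mt-Nd4, mt-Nd5 and mt-Nd6 of complex I, mt-Cytb of complex III and mt-Atp6 of complex V. In complex I, mt-Nd1, a core subunit at the coenzyme Q site, was at 1672, 1799 and 1747 FPKM in Con and 1275, 1305 and 1432 FPKM in Van, a log2 fold change of -0.39 ± 0.06 (SE) with an edgeR adjusted p of 0.028. In complex III, mt-Cytb, the cytochrome b that carries both quinone sites, was at 1748, 1969 and 1854 FPKM in Con and 1326, 1399 and 1548 FPKM in Van, a log2 fold change of -0.39 ± 0.07 (SE) with an edgeR adjusted p of 0.039.

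In complex IV, none of the 3 mitochondrial subunits passed the adjusted threshold. The catalytic subunit mt-Co1 was at 4698, 5263 and 4984 FPKM in Con and 3744, 4116 and 4390 FPKM in Van, with an edgeR adjusted p of 0.076. In complex V, mt-Atp6, part of the proton path through the membrane, was at 2265, 2447 and 2353 FPKM in Con and 1743, 1819 and 1994 FPKM in Van, with a log2 fold change of -0.36 ± 0.07 (SE) and an edgeR adjusted p of 0.037. The summed FPKM of the 13 mitochondrial mRNAs stood to that of the nuclear members of complexes I, III, IV and V as 4.77, 5.22 and 5.17 in Con and as 3.96, 4.00 and 4.13 in Van. By complex, this ratio was 6.00 ± 0.22 in Con and 4.78 ± 0.08 in Van for complex I, and 3.41 ± 0.20 and 2.62 ± 0.12 for complex III (SD, n = 3 each). It was 6.86 ± 0.34 and 5.60 ± 0.16 for complex IV, and 3.27 ± 0.24 and 2.54 ± 0.06 for complex V. In each complex all 3 Van ratios lay below all 3 Con ratios, while the nuclear sums overlapped, and the difference between nuclear and mitochondrial genes was not tested.

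The number of mitochondrial mRNAs called changed with the mice used, and was 1 without Con 1, 0 without Con 2, Con 3, Van 1 or Van 2, and 5 without Van 3. Over all genes, the 322 calls became 136, 50, 22, 116, 21 and 93 without Con 1, Con 2, Con 3, Van 1, Van 2 and Van 3 in turn, so calls were lost across all genes and not in these mRNAs alone. All 13 stayed lower and under an unadjusted p of 0.05 in each of these fits, and their median log2 fold change lay between -0.31 and -0.42. With limma on log2(FPKM + 1) values, none of the 13 and 39 of all genes were called, 7 of the 13 had an unadjusted p under 0.05, and all 13 were lower with a smaller median of -0.21. The gene mt-Nd6 lies on the other strand from mt-Nd5 and overlaps it, and since the use of strand in counting is not stated, their reads cannot be told apart there. Among the mitochondrial ribosomal RNAs, which polyA selection captures in part, mt-Rnr1 had a log2 fold change of -0.22 and mt-Rnr2 of 0.02. Neither was called, but mt-Rnr1 had an unadjusted p of 0.0137 in edgeR's fit over all genes and its CPM lay lower in all 3 Van mice than in any Con mouse, which mt-Rnr2 did not. These 2 genes were looked up after the mRNA values were seen.

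**Figure D4:**
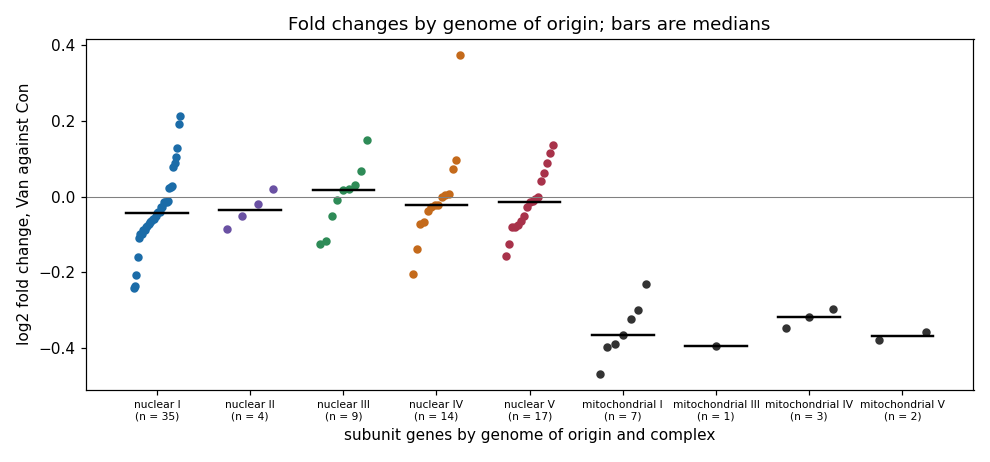
Log2 fold change of Van against Con for each nuclear member by complex (colours) and each mitochondrially encoded subunit by complex (dark grey), with the median as a bar. The nuclear medians lie between -0.04 and 0.02, while all 13 mitochondrial genes lie between -0.47 and -0.23.

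**Figure D5:**
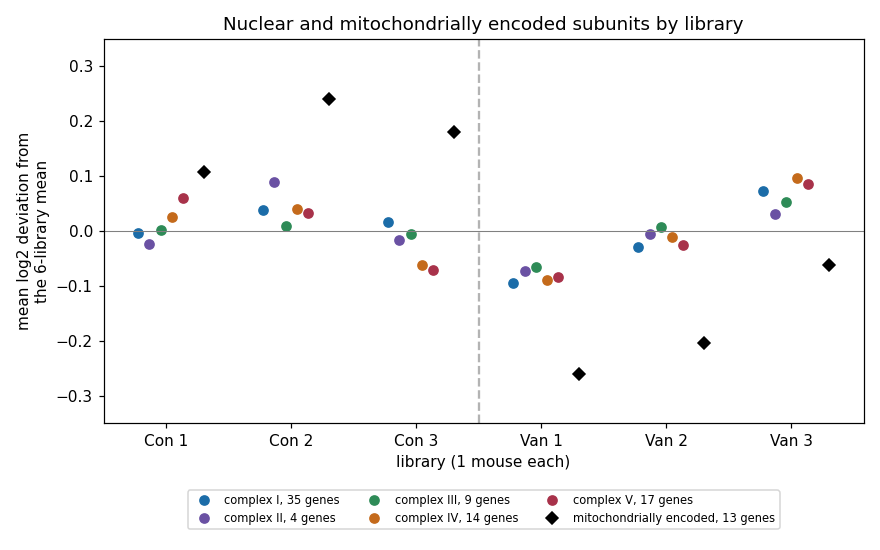
Mean log2 deviation of CPM from the 6-library mean in each mouse, for the nuclear members of each complex (circles) and the 13 mitochondrially encoded subunits (diamonds). The circles are lowest in Van 1 and mostly highest in Van 3, whereas the diamonds are above 0 in all 3 Con mice and below 0 in all 3 Van mice.

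The genes that build, feed and regulate the chain were taken from short lists, where a call share of 2.00%, that of all genes, amounts to less than 1 gene in most of them. None was called among 15 tested assembly factors of complex I, 4 of complex II, 6 of complex III, 22 of complex IV, 4 genes for complex V assembly and inhibition, or 14 genes of mobile carriers and coenzyme Q synthesis. The 18 enzymes of the tricarboxylic acid cycle showed a median log2 fold change of -0.02, with 7 higher, 11 lower and none called, and 18 glycolysis genes had 0.01, with 10 higher, 8 lower and none called. Among 15 tested regulators of mitochondrial biogenesis, with a median of 0.02, 9 were higher, 6 lower and none was called. The promoter factors Nrf1, Gabpa and Yy1 had log2 fold changes of -0.10, 0.02 and 0.10. For the mitochondrial RNA polymerase Polrmt the log2 fold change was 0.42, with an edgeR adjusted p of 0.101, and for the mitochondrial DNA packaging factor Tfam it was -0.10. Of 77 mitochondrial ribosomal proteins, 1 was called, Mrps7, which rose with a log2 fold change of 0.38 (edgeR adjusted p = 0.038), and the median of the group was 0.03. Of 84 cytosolic ribosomal proteins, none was called, with a median of -0.0009. Of the 3 nuclear subunit genes found in the table outside the naming rule, none was called, and their log2 fold changes were between -0.07 and 0.13.

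The labelled cell type was checked by its markers. Over all genes tested, 2.00% were called and 16.5% had an unadjusted p under 0.05 by edgeR. The 13 monocyte markers, which include Ly6c2, Csf1r and Lyz2, summed to 11349 to 11788 FPKM in Con and 10378 to 11680 FPKM in Van, with Van 1 the lowest. Of these 13 markers, 7 had an unadjusted p under 0.05 (3 higher and 4 lower in Van) and 3 were called, where Ccr2 and Fcgr1 fell with log2 fold changes of -0.83 and -0.32 and Vcan rose with 1.54. The 10 erythroid markers tested, such as the globins and Alas2, were all higher in Van and 5 rose (edgeR adjusted p of at most 0.05), and their sum was 102 to 207 FPKM in Con and 347 to 779 FPKM in Van. B cell markers summed to 337 to 396 FPKM in Con and 251 to 277 FPKM in Van, with all 8 lower and 1 called. Red pulp macrophage markers summed to 1554 to 1869 FPKM in Con and 1815 to 2421 FPKM in Van, and although none of the 10 was called, all 10 were higher in Van (median 0.22 on the log2 scale), 5 of them at an unadjusted p under 0.05. Of 8 dendritic cell markers, 6 were lower in Van, 5 had an unadjusted p under 0.05 (4 lower and 1 higher) and 1, Clec9a, fell with a log2 fold change of -1.12 (edgeR adjusted p = 0.013), while their sums overlapped at 114 to 119 FPKM in Con and 105 to 124 FPKM in Van. NK cell markers summed to 10.1 to 14.3 FPKM in Con and 4.56 to 7.78 FPKM in Van, with 1 of 4 tested called, Klrk1, which fell. None was called among the markers of T cells, plasma cells and platelets, and 7 of 9, 5 of 6 and 5 of 6 of them were lower in Van. The 8 neutrophil markers tested were all lower in Van with none called, and the list was near 0, at most 14.1 FPKM summed in any library. The highest erythroid sum was in Van 2, where the mean deviation of the nuclear members was -0.02, and Van 1 and Van 3, where that deviation was lowest and highest, had erythroid sums of 484 and 347 FPKM. The monocyte sums were lowest in Van 1 as the member deviations were, and second highest in Van 3, with 11572, 11788 and 11349 FPKM in Con and 10378, 11399 and 11680 FPKM in Van. The part of the other cell types in the values of the members and of the mitochondrial mRNAs was not tested. In such bulk libraries, fewer cells of a type and less RNA per cell cannot be told apart.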

How the data were processed

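Messenger RNA of splenic monocytes was analysed in 3 Con and 3 Van libraries, 1 per mouse, grouped by the labelled treatment. The authors' paper also describes mice given vancomycin and then the lipid L654, and that group is not among these libraries. The libraries were matched to the paper's water and vancomycin groups by treatment. The age of the mice and the final rest day are as the paper gives them. Members and gene lists were chosen with earlier results of these data known. Replicate p-values measure the spread between these mice.

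The authors aligned reads to GRCm38 with HISAT2 2.2.1 and SAMtools 1.9 and made the deposited FPKM values with StringTie 2.1.3 and Ballgown, scaled to transcript length and library size. The authors made the deposited estimated counts (expected counts) from StringTie output with tximport 1.26.1, unscaled. DESeq2 1.38.3 is also named in the submitters' processing notes. The annotation release, the treatment of reads with several matches and the use of strand are not given in the sources used here. If tximport's default read length of 75 bases was kept for the paired 100-base reads, 1 fragment gives 2.67 counts and depth was 16.3M to 23.2M fragments. No pair of libraries looked like 1 library deposited again (chi-square per gene of at least 20.5 within a group, on deposited counts).

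Counts were rounded and tested in R 4.3.3 with edgeR 4.0.16 (filterByExpr at a minimum count of 10, TMM, quasi-likelihood test, Benjamini-Hochberg adjustment over 16138 genes). Standard errors and 95% intervals come from this fit. Deviations are of log2(CPM + 0.1). Genes named are, per complex, the 3 members with the smallest p and those with the highest and lowest mean FPKM, all of complex II, forms with paralogues, and called genes of the lists, with exceptions said in place. The values of 1 member of complex I are not reported singly here, though it is in all counts. Alternatives were DESeq2 1.42.0, limma 3.58.1 on FPKM after log2(FPKM + 1) or log2(FPKM + 0.1) and quantile normalization, other scalings and filters, the replicate number as a block, subunits alone, Ndufa4 with complex I, and each mouse left out. Library size without mitochondrial genes and an estimated fragment scale were chosen after seeing the data. The scripts were tested on simulated data. Coordinates are from GENCODE M21 (GRCm38). Near-identical copies, found with BLAST 2.17.0, are matches of at least 200 bases at 95% identity, and 21 members had one. Exons of 25 members overlapped a gene on the opposite strand.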

Additional observations from a re-analysis of the deposited data

How the results depend on the processing

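No member was called under any alternative. The median log2 fold change of complex III, 0.02, was -0.0284 with limma on log2(FPKM + 1) and -0.0286 on log2(FPKM + 0.1) values, and -0.0269 to 0.0271 with 1 mouse left out. With 1 mouse left out, the median of all members lay between -0.0749 and 0.0063, that of complex I between -0.0847 and -0.0114, that of complex II between -0.0672 and -0.0041, that of complex IV between -0.0521 and 0.0044 and that of complex V between -0.0648 and 0.0209. With limma on log2(FPKM + 1) values, the medians were -0.0519 for all members, -0.0628, -0.0477, -0.0355 and -0.0399 for complexes I, II, IV and V, and close to these on log2(FPKM + 0.1) values. With associated proteins left out, that of complex V was -0.0279. With 1 mouse left out, Sdha ranged from -0.0738 to 0.0162, Sdhb from -0.0803 to 0.000508 and Sdhc from -0.0282 to 0.0731, and these 3 genes changed sign. Sdhd ranged from -0.116 to -0.0402 in the same fits and stayed negative. The 7 mitochondrial mRNAs called became 13 with DESeq2, 0 with limma on either scale and 0 to 5 with 1 mouse left out, and their median of -0.36 became -0.206034 on log2(FPKM + 1) and -0.20622 on log2(FPKM + 0.1) values. The cause of these changes was not tested.

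With the replicate number as a block (replicate block), no member was called, the median of all members was -0.0283, 1 mitochondrial mRNA was called and 110 of all genes were called against 322. Same-numbered mice had correlations of 0.065, -0.028 and -0.15 between their deviations, and differently numbered mice had -0.11 to 0.14. The labels state no pairing, and deviations from means of 3 mice cannot decide whether one exists. With 3 mice a group, differences in single members that lie inside the intervals given may have been missed.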
